A study of Mus musculus with 6 samples.

Results

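Clusters 24 and 27 are the smallest pair of cell clusters that the authors' annotation assigned to endothelial cells (ECs), the cells that line blood vessels. Their members were taken as every cell annotated as an EC with cluster number 24 or 27, which gave 229 cells in cluster 24 and 73 cells in cluster 27. Together these were 302 of 11433 ECs and of 58794 annotated cells in the series. Both clusters were set against EC clusters 2, 8 and 18, which held 4789, 2847 and 989 cells (8625 in all), and against 7 immune classes of the same annotation. The cells came from liver tumors of wild type male C57BL/6J mice, obtained at 8 weeks of age, that carried orthotopic tumors of H22, a murine hepatocellular carcinoma (HCC) line implanted into the liver. The 3 stress mice had undergone chronic unpredictable mild stress, with different stressors each day over 21 days, and the 3 control mice received the same tumor cells without stressors. Each mouse gave 1 10x Genomics library of dissociated tumor tissue, in which each captured RNA molecule carries a unique molecular identifier (UMI) that is counted once. Control matrices carry version 9.0.0 of Cell Ranger in their headers and stress matrices version 7.1.0, and an effect of stress cannot be told apart from one of the counting program.

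ECs are recognised by junction and adhesion proteins such as Pecam1 (CD31) and Cdh5 (VE-cadherin), together with angiopoietin and VEGF receptors such as Tek and Kdr. ECs of liver sinusoids also carry scavenger receptors, among them Stab1 and Stab2. Leukocytes pass along this lining, attach to it through selectins and integrin ligands, and leave the blood across it. Leukocytes carry the phosphatase Ptprc (CD45) on their surface. T cells carry the Cd3 complex with the T cell receptor chains, while neutrophils and monocytes carry S100a8, S100a9, Lyz2 and inflammatory mediators such as Il1b.

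Both clusters carried endothelial and leukocyte transcripts, and they differed in the leukocyte genes. Cluster 24 carried genes of myeloid cells, and cluster 27 carried genes of T and NK cells. Endothelial markers were present as the annotation has it, whereas the genes highest relative to clusters 2, 8 and 18 were leukocyte genes, which goes against a purely endothelial name. Both are therefore called by their cluster number. Since the clusters were built from the expression of these same cells, their levels are given as a description without a test, and stress was compared over mice.

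The number of cells per mouse set what could be measured. Cluster 24 held 21, 56 and 42 cells in control mice 1, 2 and 3 and 19, 39 and 52 cells in stress mice 1, 2 and 3. Cluster 27 held 1, 31 and 6 cells in the control mice and 6, 18 and 11 cells in the stress mice. Means for cluster 27 were taken over control mouse 2, stress mouse 2 and stress mouse 3, the mice with at least 10 cells. The cells of both clusters were deeper than those of clusters 2, 8 and 18, with a median of 7690 UMIs in cluster 24, 9441 UMIs in cluster 27 and 4757 UMIs in clusters 2, 8 and 18. Of the remaining EC clusters, cluster 16 was deeper than both, with a median of 14860 UMIs, and cluster 15 shallower, with 1212 UMIs. Median UMIs were 4403 in NK/T cells, 5291 in monocytes and 1547 in inflammatory myeloid cells. The median number of detected genes was 3164 in cluster 24 and 3702 in cluster 27, against 2342 in clusters 2, 8 and 18. Across libraries the median over all annotated cells ranged from 7166 to 20478 UMIs, and any pair of libraries shared between 13 and 40 cell barcodes.

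Doublet calls were frequent in both clusters. A doublet is a droplet with more than 1 cell, and the authors state that doublets had been removed with Scrublet. When Scrublet was run again on each library, it called 204 of 229 cells of cluster 24 (89.1%, exact 95% interval 84.3 to 92.8) and 42 of 73 cells of cluster 27 (57.5%, 45.4 to 69.0). In clusters 2, 8 and 18 it called 1.97% of cells, in monocytes 5.42% and in NK/T cells 8.84%. High shares were also found elsewhere, with 63.1% in M-MDSCs, 47.3% in EC cluster 16 and 36.8% in dendritic cluster 19. By mouse the called share of cluster 24 was 76.2%, 98.2% and 59.5% for controls 1 to 3, and for stress mice 1 to 3 it was 89.5%, 100% and 100%. In cluster 27 it was 19.4% in control mouse 2, 94.4% in stress mouse 2 and 100% in stress mouse 3. The cutoff on the doublet score was set per library, from 0.166 in stress mouse 2 to 0.251 in control mouse 1. Called shares of different mice are therefore not on a common scale. In cluster 24 the median score was 0.299 in control mouse 1 and 0.276 in stress mouse 3. Called cells were kept in all values below unless stated, since leaving them out left 25 cells of cluster 24 and 31 of cluster 27. In the uncalled cells of cluster 24 in control mouse 3, the endothelial markers stood at 0.696 times and the pan-leukocyte markers at 9.78 times their summed level in clusters 2, 8 and 18. In the uncalled cells of cluster 27 in control mouse 2, the ratios were 0.470 and 17.8. No other mouse kept 10 cells of either cluster. The part of doublets in the results was not tested beyond these values and the comparisons below with called doublets left out. Intervals for shares here and below are exact Clopper-Pearson intervals and cover counting error only.

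**Figure D1:**
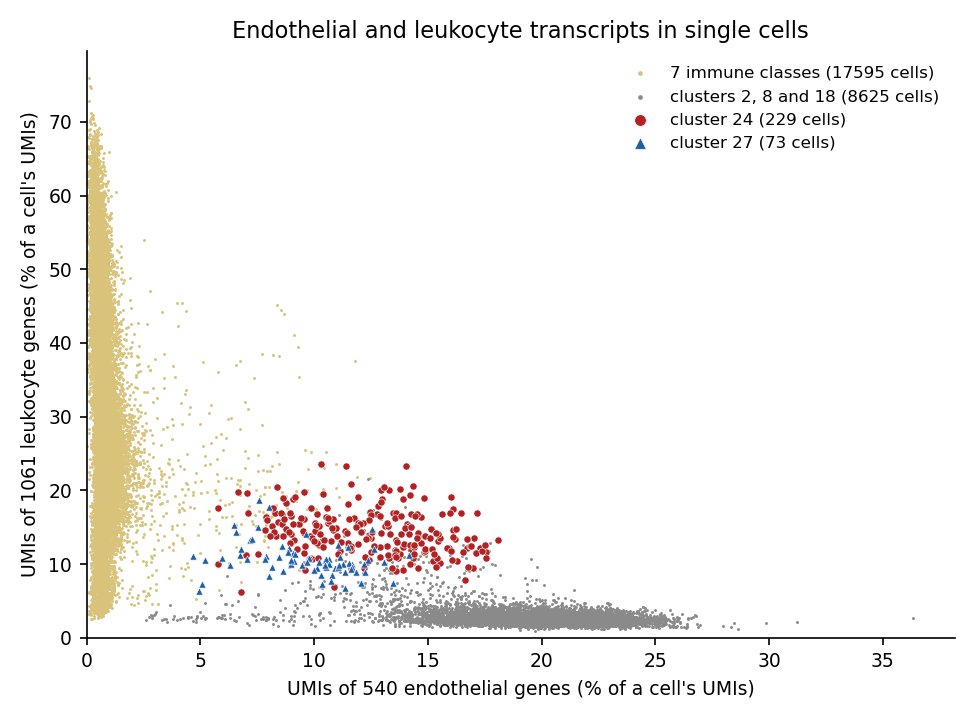
Each point is 1 cell, with the share of its UMIs from 540 endothelial genes on the x axis and from 1061 leukocyte genes on the y axis, both in percent. Clusters 24 (red circles) and 27 (blue triangles) lie between clusters 2, 8 and 18 (gray), with medians of 19.8% and 2.52%, and the immune cells (yellow) along the y axis. The genes were chosen by their levels in clusters 2, 8 and 18, the immune classes and tumor cells.

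The plot of cells uses genes that were at least 4 times higher in clusters 2, 8 and 18 than in every immune class and in tumor cells (540 endothelial genes), or at least 4 times higher in an immune class than in clusters 2, 8 and 18 and in tumor cells (1061 leukocyte genes), each with at least 50 CPM (UMIs of a gene scaled to the same total of UMIs, 1e+06) on the higher side. In cluster 24 the median cell had 12.5% endothelial and 14.0% leukocyte UMIs. In cluster 27 it had 10.0% endothelial and 10.4% leukocyte UMIs, and in clusters 2, 8 and 18 it had 19.8% and 2.52%. Every cell of both rare clusters held both kinds of transcript, since the lowest leukocyte share was 6.21% in cluster 24 and 6.37% in cluster 27 and the lowest endothelial shares were 5.77% and 4.67%. Cells of clusters 2, 8 and 18 all held both kinds too. Their leukocyte shares ran from 0.987% to 21.5% and their endothelial shares from 2.62% to 36.3%. In absolute terms the median cell held 937 endothelial UMIs in cluster 24 and 884 in cluster 27, close to the 929 in clusters 2, 8 and 18. The median of leukocyte UMIs was 1023 in cluster 24 and 1004 in cluster 27 against 123 in clusters 2, 8 and 18. As a description, the 3 sets held like numbers of endothelial UMIs per cell, and the rare clusters held more leukocyte UMIs. The genes were chosen in these data for their difference between clusters 2, 8 and 18 and the immune classes. The values of those sets therefore follow in part from the choice.

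Endothelial identity was present in every mouse at a lower relative level. Pecam1 (chromosome 11, 106654217 to 106750628, GRCm38) had 676, 434 and 540 CPM in cluster 24 of control mice 1 to 3 and 537, 368 and 418 CPM in stress mice 1 to 3. Clusters 2, 8 and 18 of the same mice had 976, 713, 952, 899, 699 and 732 CPM, above cluster 24 in each mouse. Cdh5 (chromosome 8, 104101625 to 104144511) had 786, 701, 797, 649, 352 and 648 CPM in cluster 24 against 1226, 961, 1149, 885, 817 and 979 CPM in clusters 2, 8 and 18. Stress mouse 2 was the lowest in cluster 24 for both genes. All 13 endothelial markers were lower in cluster 24 than in clusters 2, 8 and 18 in all 6 mice, with a summed level of 6291 against 10022 CPM. The median ratio over the 13 genes was 0.61, with a range of 0.52 for the lowest and 0.69 for the highest. The lining of liver sinusoids was represented too, as the 11 sinusoidal markers had a median ratio of 0.65 and 10 of them were lower in all 6 mice. Venous markers showed a median ratio of 0.59 over 9 genes. The lymphatic regulator Prox1 stayed near 0 in cluster 24, at 2.79 CPM, and at 9.91 CPM in clusters 2, 8 and 18. Closest in their endothelial genes to cluster 2 were 140 of the 229 cells, to cluster 8 were 66 and to cluster 18 were 23.

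Cluster 27 had low relative levels of endothelial genes too. Its Cdh5 level was 493, 344 and 540 CPM in control mouse 2, stress mouse 2 and stress mouse 3, and Pecam1 reached 368, 289 and 508 CPM in those mice. Both genes were lower than in clusters 2, 8 and 18 of the same mice. The 13 endothelial markers summed to 4679 CPM against 9348 CPM, and all 13 were lower in all 3 mice, with a median ratio of 0.50. The VEGF receptor Kdr had 572 ± 105 CPM (SD, n = 3 mice) in cluster 27 against 1184 ± 130 CPM. The 11 sinusoidal markers had a median ratio of 0.50. In their endothelial genes 36 of the 73 cells were closest to cluster 2, 25 to cluster 8 and 12 to cluster 18.

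**Figure D2:**
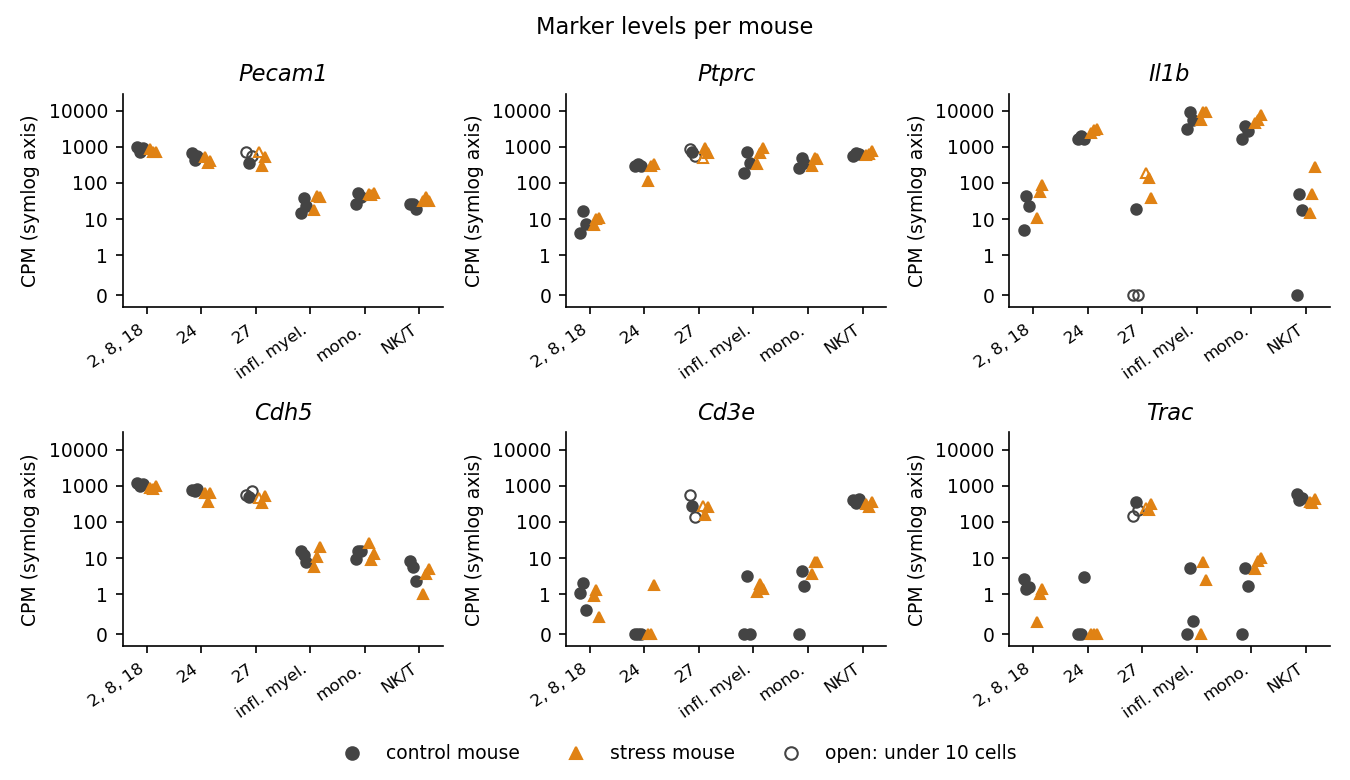
Levels of 6 marker genes per mouse in CPM (symlog y axis, linear below 1) in clusters 2, 8 and 18, cluster 24, cluster 27, inflammatory myeloid cells, monocytes and NK/T cells. Gray circles are control mice, orange triangles stress mice, and open symbols stand for fewer than 10 cells. Pecam1 and Cdh5 are high in the 3 sets of ECs shown, Il1b is high in cluster 24 and the myeloid classes, and Cd3e and Trac are high in cluster 27 and NK/T cells.

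Cluster 24 carried a myeloid program. Ptprc (chromosome 1, 138062861 to 138175708) had 287, 334 and 293 CPM in control mice 1 to 3 and 112, 301 and 335 CPM in stress mice 1 to 3. In clusters 2, 8 and 18 it ranged from 4.12 to 16.6 CPM over the mice, so the sets did not overlap. All 8 pan-leukocyte markers were higher in cluster 24 in all 6 mice, and together they reached 2084 CPM against 216 CPM. Of 4480 genes with at least 50 CPM in the higher set, 289 (6.45%) were over 4-fold higher in cluster 24 and 0 were over 4-fold lower, a contrast that the clustering itself used. The 10 with the highest ratio were Chil3, S100a9, S100a8, Retnlg, Cxcl3, Cstdc4, Il1b, Cd86, Ccl6 and Pid1. Chil3, a lectin of monocytes and macrophages, led with 497 against 4.13 CPM (log2 ratio 6.60).

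Among secreted mediators, Il1b (chromosome 2, 129364570 to 129371139), the interleukin 1 beta gene, had 1698, 2043 and 1676 CPM in control mice and 2365, 2986 and 3064 CPM in stress mice. Clusters 2, 8 and 18 had 37.3 CPM on average, monocytes 4313 CPM and inflammatory myeloid cells 6989 CPM. The chemokine Cxcl2 had 4980 ± 2564 CPM (SD, n = 6 mice) against 106 ± 66.7 CPM, and Cxcl3 had 638 against 7.17 CPM. In a list of 10 inflammatory myeloid mediators, put together after the levels were seen, all 10 were higher in cluster 24 in all 6 mice and summed to 11099 against 218 CPM. The level in cluster 24 was a median of 0.57 times that of monocytes over these 10 genes.

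The S100 alarmins, calcium-binding proteins of neutrophils and monocytes, varied between mice. S100a9 (chromosome 3, 90692632 to 90695721) had 1563, 3528 and 2002 CPM in control mice and 796, 535 and 3260 CPM in stress mice. The highest and the lowest values of cluster 24 lay far apart, and even the lowest was above the 64.3 CPM that was the highest in clusters 2, 8 and 18. The neutrophil and inflammatory myeloid markers summed to 4223 CPM, with a range of 1288 to 7249 CPM over mice, against 49.6 CPM. Dendritic markers summed to 2931 CPM against 170 CPM with 3 of 8 higher in all mice, and macrophage markers to 4296 CPM against 851 CPM with 8 of 10 higher in all mice. Kupffer cell markers were uneven, from 9.60 to 693 CPM over mice, with Vsig4 at 211, 7.20 and 54.3 CPM in control mice and 41.3, 0 and 3.56 CPM in stress mice.

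Genes of several other lineages were low in cluster 24. The T and NK list summed to 59.2 CPM against 17.7 CPM in clusters 2, 8 and 18 and 5443 CPM in NK/T cells, and 4 of its 12 genes were at 0. B cell markers summed to 14.4 CPM, hepatocyte markers to 18.6 CPM, stellate and fibroblast markers to 9.84 CPM, cholangiocyte markers to 1.20 CPM and Schwann markers to 0.593 CPM. Erythroid genes, led by the hemoglobins, summed to 1.70 CPM in cluster 24 and 297 CPM in clusters 2, 8 and 18. Tumor markers summed to 20.2 CPM against 40.0 CPM. Plasma cell genes were higher, at 246 against 181 CPM (218 from Xbp1). Mast cell genes were lower, at 325 against 499 CPM (325 from Kit), and platelet genes were alike in sum, at 214 against 212 CPM. Among the platelet genes Pf4 had 82.9 against 13.1 CPM and Itga2b 127 against 196 CPM. Among the 10 genes with the lowest ratios were Ccn1, Hmga2, Celf4, Bmper, Slc10a6, Itih3, Tmcc2, Ltbp4 and Ripply3, of which Ccn1, a matricellular protein, had 14.7 against 53.3 CPM (log2 ratio −1.79).

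The myeloid transcripts of cluster 24 were not of 1 kind. For each cell, the immune genes were compared with the profiles of 9 of the authors' immune clusters, which did not include cluster 23 (M-MDSCs). Closest to inflammatory myeloid cluster 0 were 110 of 229 cells, to monocyte clusters 11, 12 and 13 were 91, to dendritic clusters 19 and 20 were 23, and to neutrophil cluster 25 were 5. No cell was closest to NK/T cluster 10. The cells near cluster 0 held 3908 CPM of S100a9 and 53.2 CPM of Lyz2, the lysozyme gene of monocytes and macrophages. Cells near the monocyte clusters held 25.2 CPM of S100a9 and 1775 CPM of Lyz2. Cells near the dendritic clusters held 3862 CPM of Cd74, the chaperone of antigen presentation, against 1807 CPM near the monocyte clusters, and 567 CPM of Ccr7, a chemokine receptor of migrating dendritic cells, against 6.58 CPM. These values rest on the same genes as the assignment and are a description. Endothelial transcripts were present in all 4 groups, with Cdh5 at 855 CPM near cluster 0, 512 near the monocyte clusters, 454 near the dendritic clusters and 772 near cluster 25. Median UMIs were 6626.5, 9262, 10684 and 7562 in that order.

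**Figure D3:**
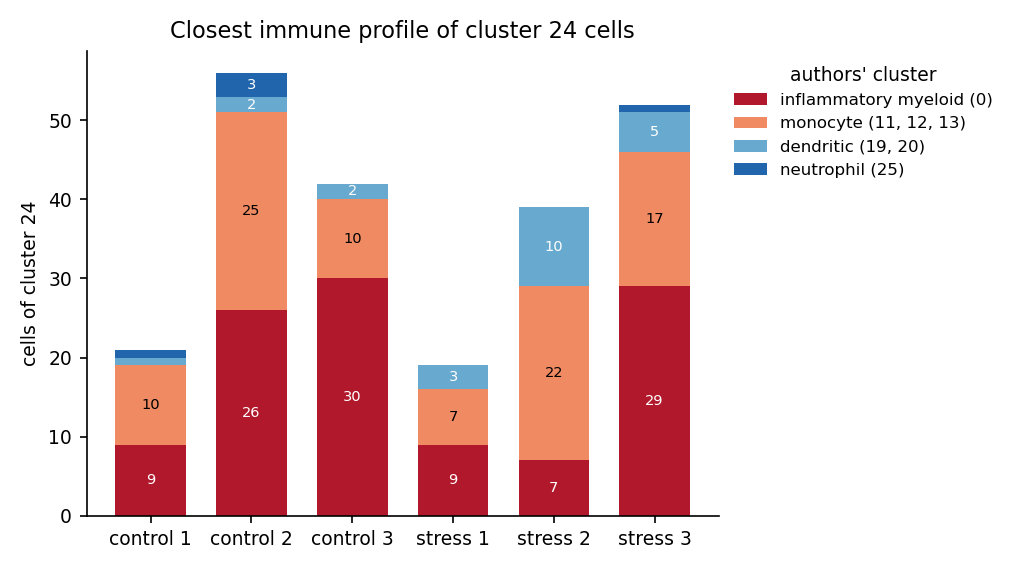
Number of cluster 24 cells per mouse (y axis) by the authors' immune cluster closest in immune gene expression (colors), with counts of at least 2 written in the bars. Control mice 1, 2 and 3 had 9, 26 and 30 cells near inflammatory myeloid cluster 0, and stress mice 1, 2 and 3 had 9, 7 and 29.

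The makeup differed between mice. In stress mouse 2, 7 of 39 cells were near cluster 0 and 10 were near the dendritic clusters. In control mouse 3, 30 of 42 cells were near cluster 0 and 2 near the dendritic clusters. Near the dendritic clusters lay 1, 2 and 2 control cells, against 3, 10 and 5 cells under stress.

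Cluster 27 carried a T cell program. Cd3e (chromosome 9, 44998740 to 45009627), a chain of the T cell receptor complex, had 284, 160 and 266 CPM in control mouse 2, stress mouse 2 and stress mouse 3. Clusters 2, 8 and 18 had 1.24 CPM on average in those mice, and NK/T cells had 314 CPM. The mice with fewer than 10 cells, control mice 1 and 3 and stress mouse 1, had 573, 137 and 276 CPM. All 6 mice were thus far above the clusters 2, 8 and 18, where the highest mouse had 1.99 CPM. Trac (chromosome 14, 54220521 to 54224206), the constant region of the alpha chain, had 349, 220 and 321 CPM in the 3 mice with at least 10 cells. The 12 T and NK markers summed to 3284 CPM against 22.4 CPM, and 10 of 12 were higher in all 3 mice. Against NK/T cells their median ratio was 0.67.

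Of 4722 genes with at least 50 CPM in the higher set, 330 (6.99%) were over 4-fold higher in cluster 27 and 7 (0.148%) were over 4-fold lower. Among the 10 highest ratios were those of Themis, Camk4, Il2rb, Cd3g, Trac, Tox, Prf1, Ccl5 and Nkg7, which include signalling proteins of the T cell receptor and granule proteins of cytotoxic cells. Themis (chromosome 10, 28668360 to 28883818), needed for T cell development, had 645 against 2.74 CPM (log2 ratio 7.43) and 474 CPM in NK/T cells. Among the 10 lowest ratios were those of Cnmd, Mecom, Tns3, Ifit2, Il13ra2, Vegfc, Ednrb, Hmga2 and Msr1. Vegfc, a growth factor for lymphatic vessels, had 14.8 against 69.5 CPM in the 3 mice used. In control mouse 1 (1 cell), control mouse 3 and stress mouse 1 (6 cells each) Vegfc had 0, 152 and 147 CPM, against 125, 137 and 57.2 CPM in clusters 2, 8 and 18, so that cluster 27 was the higher in both mice with 6 cells. Ednrb, an endothelin receptor, had 15.5 against 66.0 CPM in the 3 mice used. In the other 3 mice, in the same order, Ednrb had 1290, 213 and 442 CPM against 1099, 478 and 750 CPM in clusters 2, 8 and 18, so that both sets were high in the same mice and cluster 27 was the higher in control mouse 1. In these mice Ifit2 had 143, 152 and 184 CPM against 23.8, 68.2 and 75.2 CPM, higher in cluster 27 in all 3. Cnmd was higher in control mouse 1 (287 CPM, from 1 cell) and stress mouse 1 (111 against 62.8 CPM), and Mecom in control mouse 1 (143 against 86.4 CPM) and control mouse 3 (76.1 against 62.5 CPM). Il13ra2 was higher in control mouse 3 and Msr1 in stress mouse 1, so the low ratios of these genes rest on the 3 mice with at least 10 cells.

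Genes that mark T cell subsets and states were present together. Of the 73 cells, 39 held at least 1 UMI of both Cd8a and Cd3e (53.4%, 41.4 to 65.2) and 13 held both Cd4 and Cd3e (17.8%, 9.84 to 28.5). The same pairs were found in 46.3% and 12.7% of NK/T cells, and in 0.0696% and 0.0464% of clusters 2, 8 and 18. Foxp3, the factor of regulatory T cells, was detected in 1 cell and Ncr1, a receptor of NK cells, in 2 cells. Cd8a had 212 CPM in control mouse 2, 29.9 CPM in stress mouse 2 and 180 CPM in stress mouse 3, and Cd4 had 22.7, 185 and 7.82 CPM. Stress mouse 2 was thus low in Cd8a and high in Cd4. In a list of 12 T cell state genes put together after the levels were seen, 10 were higher than in clusters 2, 8 and 18 in all 3 mice. The inhibitory receptor Pdcd1 had 207 ± 28.5 CPM (SD, n = 3) against 234 CPM in NK/T cells, and Tox, a factor of exhausted T cells, had 439 ± 75.7 CPM against 379 CPM.

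Myeloid lists were mixed in cluster 27. The neutrophil and inflammatory myeloid list summed to 22.8 CPM against 69.3 CPM, macrophage markers to 460 against 766 CPM, and Kupffer markers to 6.40 against 18.3 CPM with 3 of 5 at 0. Monocyte markers were higher, at 677 against 257 CPM, and stood at 797 CPM in NK/T cells. Dendritic markers had a mean sum of 361 against 231 CPM, but the mice differed. Their sum ran from 90.9 to 804 CPM over the 3 mice, against 206 to 281 CPM in clusters 2, 8 and 18. Of the 8 dendritic genes, 0 were higher and 3 were lower in all 3 mice. The 10 inflammatory myeloid mediators summed to 821 against 287 CPM, and to 1716 CPM in NK/T cells. Of 723 myeloid genes the median cell held 621 UMIs, against 90 in clusters 2, 8 and 18 and 515 in NK/T cells. Cycling markers were higher, with 948 CPM in cluster 27, 237 CPM in clusters 2, 8 and 18 and 1479 CPM in NK/T cells. Of these 12 genes, 8 were higher than in clusters 2, 8 and 18 in all 3 mice. Mki67, a marker of dividing cells, had 34.1 CPM in control mouse 2, 299 CPM in stress mouse 2 and 62.6 CPM in stress mouse 3, against a mean of 114 CPM in NK/T cells. Cluster 24 was not raised in this list, with 171 against 191 CPM. B cell, hepatocyte, stellate, cholangiocyte and Schwann markers summed to 11.4, 30.8, 12.2, 5.45 and 0 CPM in cluster 27. By their immune genes, 71 of the 73 cells were closest to NK/T cluster 10.

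Transcripts of both lineages were found under the same cell barcode. Cdh5 and Ptprc were detected together in 170 of 229 cells of cluster 24 (74.2%, 68.1 to 79.8) and in 66 of 73 cells of cluster 27 (90.4%, 81.2 to 96.1). The pair was found in 2.31% of clusters 2, 8 and 18, 3.07% of monocytes, 2.45% of NK/T cells and 0.888% of inflammatory myeloid cells, at the lower depths given above. Cdh5 and Il1b were found together in 88.2% of cluster 24, 13.7% of cluster 27 and 7.28% of clusters 2, 8 and 18. Cdh5 and Cd3e were found together in 59 cells of cluster 27 (80.8%, 69.9 to 89.1), 1 cell of cluster 24 and 0.383% of clusters 2, 8 and 18. A barcode can hold more than 1 cell, and the part of the called doublets in these shares was not tested.

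The shares were also compared at equal depth. At least 3 of the 13 endothelial and 3 of the 8 pan-leukocyte markers were detected in 218 cells of cluster 24 (95.2%), in all 73 of cluster 27 and in 2.99% of clusters 2, 8 and 18. After every cell was thinned to 1000 UMIs, at least 2 of each list were found in 47.2%, 69.9% and 1.47%. Thinned cells held Ptprc in 23.6% of cluster 24 and 49.3% of cluster 27, against 0.511% of clusters 2, 8 and 18. Thinned cells held Cdh5 in 53.7% of cluster 24, 37.0% of cluster 27 and 63.1% of clusters 2, 8 and 18. Thinning left out 10 cells of clusters 2, 8 and 18 and none of the rare clusters.

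Levels were also set against the highest of both sides. Of 3988 genes with at least 50 CPM and a UMI in at least 10% of the cells of cluster 24, 2487 (62.4%) lay between the highest of clusters 2, 8 and 18 and the highest immune class. A further 108 lay above both, none of them by over 2-fold, and 1393 lay below both, 6 of these by over 2-fold. In cluster 27, 2296 of 4139 genes (55.5%) lay between, 653 lay above both, 6 of these by over 2-fold, and 1190 lay below both, 81 of these by over 2-fold. When tumor cells and hepatic stellate cells were included, 96 genes of cluster 24 and 578 of cluster 27 were higher than in every other set, 0 and 5 of them by over 2-fold. The 5 genes, named here after their values were seen, were Ptch1, Tnfsf4, Atp2b2, Sp4 and Jazf1. Each was above the next set in 3 of the 3 mice with at least 10 cells, but these mice also selected the genes. In control mice 1 and 3 and stress mouse 1, Atp2b2 had 573, 15.2 and 73.7 CPM. In the same order Sp4 had 287, 76.1 and 92.1 CPM and Jazf1 143, 15.2 and 18.4 CPM. The next sets of Atp2b2, Sp4 and Jazf1 had means of 20.1, 55.7 and 38.5 CPM in the 3 mice used. Ptch1, the receptor of hedgehog ligands, had 72.0, 130 and 117 CPM, a mean of 106 CPM, against 39.0 CPM in cluster 2. In the mice with fewer cells, control mice 1 and 3 and stress mouse 1, Ptch1 had 0, 15.2 and 36.8 CPM. Tnfsf4, the ligand of the costimulatory receptor OX40, had 90.9, 74.9 and 70.4 CPM, against 29.8 CPM in NK/T cells, and 143, 45.7 and 55.3 CPM in the mice with fewer cells.

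Adhesion genes of both sides were present in the same clusters. On the endothelial side, 6 of 9 genes were lower in cluster 24 than in clusters 2, 8 and 18 in all 6 mice, with a summed level of 2198 against 4067 CPM. P-selectin, Selp, had 630 ± 247 CPM (SD, n = 6) in cluster 24 against 1319 ± 393 CPM, and Vcam1 had 523 ± 187 against 1072 ± 177 CPM. On the leukocyte side, 8 of 9 genes were higher in cluster 24 in all 6 mice, with 1723 against 569 CPM. In cluster 27 the endothelial side summed to 2000 against 3515 CPM and the leukocyte side to 1367 against 566 CPM. Both lists were put together after the levels were seen. Jam2, a junction protein through which ECs bind leukocytes, had 515, 334 and 640 CPM in cluster 24 of control mice and 844, 339 and 440 CPM in stress mice. Its groups overlapped, and its partner F11r had 145 ± 31.0 CPM in cluster 24 against 212 ± 24.7 CPM in clusters 2, 8 and 18.

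Whether stress changed the size of the clusters was compared over mice as a share of ECs. Among the ECs of control mice 1.07%, 2.66% and 2.77% belonged to cluster 24, against 1.22%, 2.0% and 2.22% for stress mice. Control mouse 1 and stress mouse 1 had the lowest shares, and the groups overlapped. The exact 95% intervals ran from 0.664 to 1.63% in control mouse 1, from 2.01 to 3.73% in control mouse 3 and from 0.735 to 1.90% in stress mouse 1. The means were 2.17% ± 0.952 and 1.81% ± 0.527 (SD, n = 3 each), a difference of −0.355 percentage points (two-sided exact permutation test, p = 0.6, adjusted over both clusters p = 0.9). To cluster 27 belonged 0.0510%, 1.47% and 0.396% of the ECs of controls, against 0.385%, 0.923% and 0.470% after stress, and control mice held both the lowest and the highest share. The difference of the means, 0.640% ± 0.741 and 0.592% ± 0.289, was −0.0471 percentage points (two-sided exact permutation test, p = 0.9, adjusted p = 0.9). With 3 mice against 3 this test cannot go below 0.1. Both differences turned positive with all annotated cells as the denominator (0.0124 and 0.0131 percentage points), and that of cluster 27 was 0.369 without control mouse 2. With called doublets left out, the mean share of cluster 24 was 0.521% in control and 0.0462% in stress mice (two-sided exact permutation test, p = 0.2), and that of cluster 27 was 0.538% and 0.0419% (p = 0.3). The cutoff for a call differed between libraries, so these shares are not on a common scale. One control mouse carried each control mean. Cluster 24 had 0.281%, 0.0537% and 1.23% in control mice, a mean of 0.167% without control mouse 3, against 0.139%, 0 and 0% in stress mice. Cluster 27 had 0.0561%, 1.34% and 0.217% in control mice, a mean of 0.136% without control mouse 2, against 0.0693%, 0.0564% and 0% in stress mice. The difference of cluster 24 ranged from −0.903 without control mouse 1 to −0.0513 without control mouse 3 (−0.0570 without stress mouse 1, −0.109 without control mouse 2), and that of cluster 27 was also positive without stress mouse 1 (0.0568) or stress mouse 3 (0.0141).

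**Figure D4:**
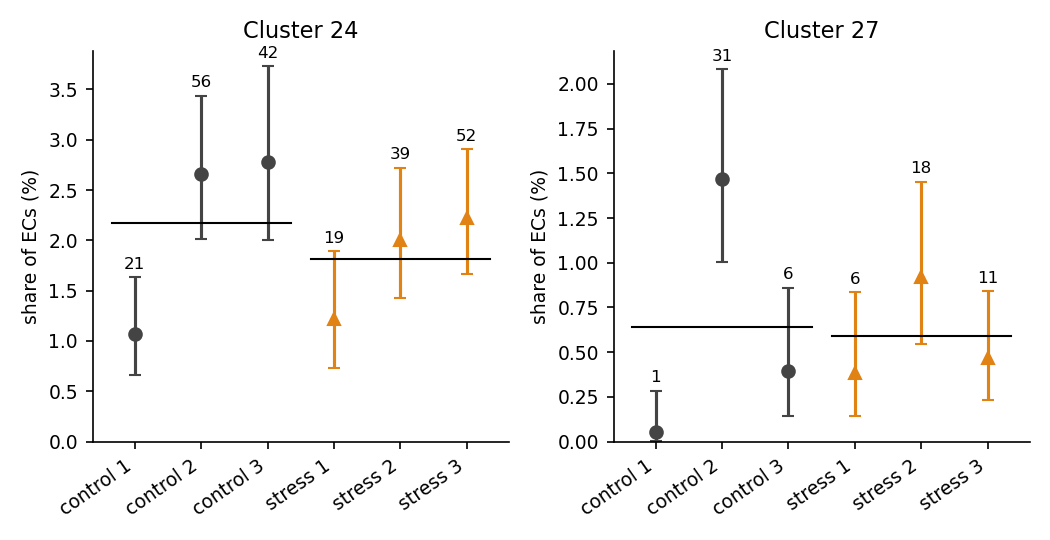
Share of clusters 24 and 27 among the ECs of each mouse (y axis, percent), with exact 95% Clopper-Pearson intervals as error bars, cell numbers above them and group means as horizontal lines. Control mice are gray circles and stress mice orange triangles, and the groups overlap in both panels.

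The edgeR quasi-likelihood test of cell numbers over all 28 clusters called 1 cluster (3.57%), which was cluster 15 and neither of the rare ones. Its log2 fold change of stress over control was 0.05 for cluster 24 (Benjamini-Hochberg adjusted p = 0.918) and 0.14 for cluster 27 (adjusted p = 0.905). With a replicate block the edgeR test called clusters 10, 11, 12, 14, 15, 20, 25 and 26. Neither rare cluster was called there (edgeR adjusted p = 0.844 for cluster 24 and 0.591 for cluster 27). Across the 6 mice, the share of cluster 24 among ECs was compared with the share of myeloid classes among all cells. Control mice had 9.95%, 26.5% and 27.9% myeloid cells, and stress mice 13.7%, 28.6% and 39.9%. Pearson's r was 0.750 (permutation p = 0.0889, adjusted over 2 relations p = 0.133) and Spearman's rho 0.543 (permutation p = 0.297, adjusted p = 0.297). Without control mouse 1 and stress mouse 1, r was −0.435, so the relation rested on those mice. For the share of cluster 27 and that of NK/T cells, r was 0.713 (permutation p = 0.133, adjusted p = 0.133) and rho 0.886 (permutation p = 0.0333, adjusted p = 0.0667), with r of 0.675 without stress mouse 2 and control mouse 1. Neither relation passed after adjustment. Libraries of 1 group were counted with 1 version of Cell Ranger, and within a group of 3 mice no correlation was computed.

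Gene expression in cluster 24 was compared between stress and control mice on UMIs summed per mouse. The edgeR test with 5899 genes called 8 (0.136%), all higher in stress mice, and 403 genes had an unadjusted p below 0.05. Lower genes were called under some alternatives, with 69 higher and 58 lower without the filter on low counts, 16 and 18 without control mouse 2, 13 and 3 with DESeq2 and 5 and 1 without stress mouse 3. With called doublets left out, 705 genes could be tested on the 23 cells of 3 control mice and the 2 cells of 1 stress mouse, and edgeR called 0 (46 at an unadjusted p below 0.05). Among the 8 were Cmss1, Gphn, Cdk8, Lars2 and Camk1d. Cmss1, a ribosome biogenesis factor, had 203, 228 and 214 CPM in control mice and 1840, 1444 and 1545 CPM in stress mice. The groups were far apart, and the log2 fold change was 2.90 ± 0.23 (SE, edgeR adjusted p = 0.000113). Gphn rose by 2.41 on the log2 scale (edgeR adjusted p = 0.000514), Cdk8 by 2.25 (0.000566), Lars2 by 2.23 (0.000713) and Camk1d by 2.06 (0.00104). In clusters 2, 8 and 18 the log2 fold changes of the same genes were 2.96, 2.62, 3.02, 2.77 and 2.63, all past the threshold in an edgeR test that called 10 genes higher (0.0808%) and 18 lower (0.146%). Cmss1 had higher CPM in every stress mouse than in every control mouse in NK/T cells, monocytes and dendritic cells too. For these genes, too, stress cannot be told apart from the counting program.

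The other 3 genes were Ccl17, St8sia4 and mt-Nd4l. Ccl17 (chromosome 8, 94810453 to 94812036), a chemokine of dendritic cells that attracts T cells, had 0, 16.8 and 6.04 CPM in control mice and 41.3, 347 and 424 CPM in stress mice. Stress mice 2 and 3 were high, stress mouse 1 lay closer to the controls, and the groups did not overlap. The log2 fold change was 4.77 ± 0.78 (SE, edgeR adjusted p = 0.0385). Only 19 of 229 cells held a Ccl17 UMI. Dendritic cells had 113, 347 and 111 CPM in control mice and 392, 460 and 734 CPM in stress mice, while clusters 2, 8 and 18 had 0.426 CPM on average. St8sia4 (chromosome 1, 95587682 to 95667571), a polysialyltransferase, had 16.9, 38.4 and 15.1 CPM in control and 142, 121 and 103 CPM in stress mice, again without overlap (2.20 ± 0.37, edgeR adjusted p = 0.0444). St8sia4 had 113 CPM in monocytes, 181 CPM in dendritic cells and 6.36 CPM in clusters 2, 8 and 18. The mitochondrial gene mt-Nd4l had 33.8, 40.8 and 33.2 CPM in control and 147, 105 and 139 CPM in stress mice (1.81 ± 0.30, edgeR adjusted p = 0.0385). All 3 lost the call when control mouse 1 or 3 or stress mouse 2 or 3 was left out, where adjusted p ranged from 0.0502 to 0.226. The count of calls was 5 without control mouse 1 or stress mouse 2 and 34 without control mouse 2. Beside the rise of Ccl17 stood the number of cells near the dendritic clusters, higher in stress mice, and the share of called doublets, 100% in stress mice 2 and 3, both as given above. An unplanned refit with 2496 genes used only the cluster 24 cells closest to the inflammatory myeloid cluster. It left out the cells near the dendritic clusters, among others. Of the stress mice, only stress mouse 3 held enough of these cells for the limit per mouse. No calls are therefore read from that refit. The part of the dendritic-like cells and of the called doublets in the rise of Ccl17 was not tested otherwise.

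**Figure D5:**
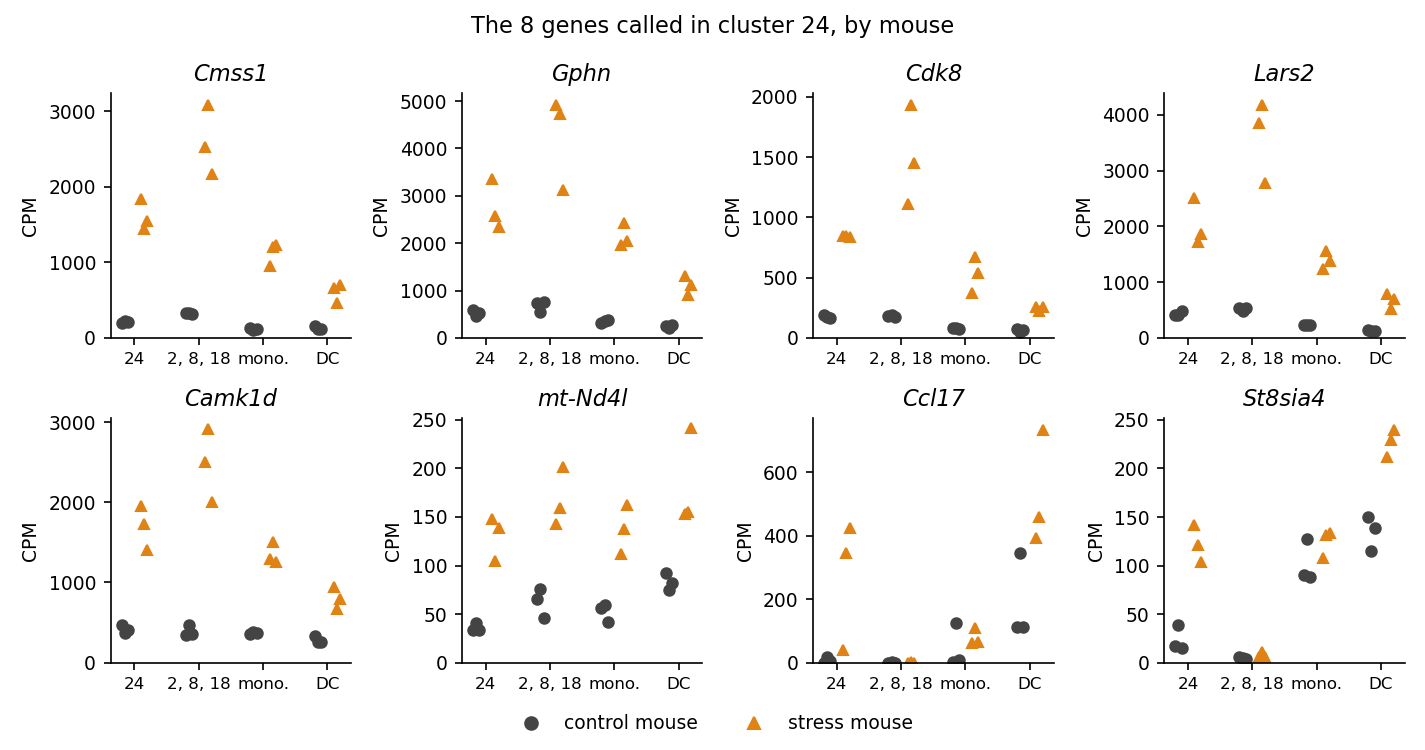
Levels per mouse in CPM (linear y axes from 0) of the 8 genes called in cluster 24, shown for cluster 24, clusters 2, 8 and 18, monocytes (mono.) and dendritic cells (DC). Control mice are gray circles and stress mice orange triangles. Cmss1, Gphn, Cdk8, Lars2, Camk1d and mt-Nd4l are higher in stress mice in all 4 sets, while Ccl17 and St8sia4 are near 0 in clusters 2, 8 and 18.

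The called genes were also sorted by where they were higher. Of the 8, 0 were among 567 tested genes at least 4 times higher in clusters 2, 8 and 18 than in every immune class, 2 were among 822 at least 4 times higher in an immune class and 6 among 4510 in neither. With 0.136% of all genes called, these counts of calls are too small to set the sets apart. The sets held 9.61%, 13.9% and 76.5% of the genes tested. They held 45, 137 and 221 of the 403 genes with an unadjusted p below 0.05. The p-values of the same edgeR fit were also adjusted over a separate list of 530 endothelial genes alone, a step added after the data were seen. Of these, 0 were called and 43 had an unadjusted p below 0.05. The 13 endothelial markers had a median log2 fold change of −0.07 and 0 calls, beside a median of 0.0042 over all genes tested. Cdh5 differed by −0.46 (SE 0.26, edgeR adjusted p = 0.791) and Pecam1 by −0.30 (SE 0.25, adjusted p = 0.902). Jam2 differed by 0.12 (SE 0.35, edgeR adjusted p = 0.989), F11r by 0.29 (adjusted p = 0.919) and the selectin Sele by −0.84 (adjusted p = 0.639).

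Leukocyte lists also held no call, which says little for lists of this size with 0.136% of all genes called. The 8 pan-leukocyte genes had a median log2 fold change of 0.23, the 7 tested neutrophil and inflammatory myeloid genes −0.70, the 9 tested macrophage genes −0.31 and the 5 tested dendritic genes 1.23. Within the dendritic list Ccr7, named after its values were seen, had 0, 2.40 and 24.2 CPM in control mice and 319, 126 and 101 CPM in stress mice (a log2 change of 3.99 ± 0.69, edgeR adjusted p = 0.0507). It came from 13 of 229 cells and just missed the threshold. Il1b was higher in every stress mouse than in every control mouse, as were 357 of 5899 genes (6.05%), while 386 (6.54%) were lower in every stress mouse, and its log2 fold change of 0.64 did not pass (SE 0.20, edgeR adjusted p = 0.465).

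The response of cluster 24 was next compared directly with that of clusters 2, 8 and 18 in the same mice. The edgeR interaction test with 12255 genes called 28 (0.228%), of which 19 (0.155%) had a higher and 9 (0.0734%) a lower stress effect in cluster 24. In cluster 24, control and stress mice did not overlap for 14 of the 28, as for 11% of all genes tested. DESeq2 called 1 gene in the same comparison, with 326 at an unadjusted p below 0.05. The edgeR count was 76 without control mouse 2 and 71 without stress mouse 1. None of the 28 were among 1057 tested endothelial genes at the 4-fold limit, 20 were among 2184 immune genes and 8 were in neither. S100a4, a calcium-binding protein of leukocytes, had 84.5, 163 and 202 CPM in cluster 24 of control mice and 295, 533 and 370 CPM in stress mice, with no overlap. In clusters 2, 8 and 18 it had 9.38 to 19.3 CPM, and the difference of the stress effects was 1.49 ± 0.30 (SE, edgeR adjusted p = 0.00444). Egr1, an immediate-early transcription factor, had 921, 919 and 1534 CPM in control mice and 501, 315 and 447 CPM in stress mice, whereas clusters 2, 8 and 18 had 453 CPM in control and 483 CPM in stress mice on average. The difference was −1.41 ± 0.24 (SE, edgeR adjusted p = 0.000545). Egr1 was also lower in every stress mouse than in every control mouse in monocytes, inflammatory myeloid cells, NK/T cells and dendritic cells, with means of 913 and 297 CPM in monocytes. Within the pooled clusters its level differed, with 1055 CPM in cluster 8 and 134 CPM in cluster 2. The change of Egr1 within cluster 24 alone was −1.42 (edgeR adjusted p = 0.0914).

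For cluster 27 the planned comparison of stress and control mice could not be made, since 1 control mouse had at least 10 cells. With every mouse that held at least 1 cell, edgeR tested 2272 genes and called 5 (0.220%), all higher in stress mice. They were Cdk8 (log2 fold change 2.87, edgeR adjusted p = 0.00180), Cmss1 (2.83, 0.000170), Gphn (2.64, 0.000170), Camk1d (2.62, 0.000676) and Lars2 (2.49, 0.000415), the same 5 genes that were called in cluster 24 and in clusters 2, 8 and 18. The count was 11 without control mouse 3 and 8 without stress mouse 1. None of 8 tested T and NK markers, 11 tested endothelial markers and 1 tested cycling marker were called, and 91 genes had an unadjusted p below 0.05. The edgeR interaction with clusters 2, 8 and 18 tested 11928 genes and called 2 (0.0168%), Basp1 and Tnfsf8, the latter named after its values were seen because its groups overlapped. Basp1 had 0, 15.2 and 0 CPM in control mice and 147, 89.8 and 23.5 CPM in stress mice, from 7 of 73 cells. Its difference was 3.77 ± 0.84 (SE, edgeR adjusted p = 0.0411) and ranged from 3.16 to 12.1 when 1 mouse was left out. Basp1 lost the call without each mouse other than stress mouse 3, with adjusted p from 0.0783 to 0.577, and the count of calls was 4 and 1 when control mouse 1 or 3 was left out and 5 and 8 when stress mouse 1 or 3 was. DESeq2 called 0 genes there, with 126 at an unadjusted p below 0.05, against 457 in edgeR.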

How the data were processed

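Libraries of 6 mouse liver tumors (3 control, 3 stress) were analysed from the counts that the authors deposited, which are UMIs per gene and cell from Cell Ranger on mm10. Clusters and cell types were taken from the deposited annotation, which the authors made with Seurat and Harmony after excluding cells of high mitochondrial share or few genes. The annotated cells held 149558935 to 187728350 UMIs per mouse. Counts were summed per mouse and set and divided by all UMIs of the set to give CPM. Clusters were described without a test, because they were built from the same genes. Sums of at least 10 cells were tested with the quasi-likelihood test of edgeR 4.0.16 in R 4.3.3 with TMM factors, a filter on low counts and Benjamini-Hochberg adjustment at 0.05. Statistics on shares used exact permutation in SciPy 1.17.1. Scrublet was run per library through scanpy 1.11.5, and called cells were kept. The edgeR steps were tested on simulated data.

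Named genes were the 10 with the highest and the 10 with the lowest log2 ratio to clusters 2, 8 and 18 (pseudocount 1 CPM, at least 50 CPM in the higher set and a UMI in at least 10% of its cells), up to 10 genes past each test's threshold whose groups did not overlap, members of the marker lists, 8 genes the study names for ECs or their interaction with macrophages and 5 genes called across cell types. Mitochondrial and ribosomal genes and gene models were left out of the first set. Some genes that the rule names are not reported here. The clusters, lists and tests were chosen with earlier results of these data known. Alternatives were RLE size factors, no filter, DESeq2 1.42.0, a replicate block, other denominators, cells thinned to 1000 UMIs, called doublets left out and each mouse left out. Another alternative, which was not planned, refitted cluster 24 on only the cells closest to the inflammatory myeloid cluster. Replicates were separate mice. Gene positions came from GENCODE M21 on GRCm38.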

Additional observations from a re-analysis of the deposited data

Results flagged for a closer look

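The results here were singled out because the test of the difference itself, the edgeR interaction of stress and cluster set with Benjamini-Hochberg adjustment, passed 0.05. In cluster 24 against clusters 2, 8 and 18 these were 28 genes, of which 14 also had control and stress mice that did not overlap in cluster 24, as did 11% of all genes tested. The 10 with the largest differences are given here. DESeq2 called 1 gene in the same comparison, and none of these 10. Ccl17 showed a difference of the log2 stress effects of 4.32 (SE 1.05, edgeR adjusted p = 0.0424), but clusters 2, 8 and 18 held 0 to 10 Ccl17 UMIs per mouse, so that their own stress effect was read near 0 and the value rests on the change within cluster 24. Its call was lost in 5 of 11 alternatives, among them those without control mouse 2 (adjusted p = 0.872) or stress mouse 3 (0.567). The difference for Ramp3, a subunit of adrenomedullin receptors, was 3.30 (SE 0.59, edgeR adjusted p = 0.000786). Ramp3 had 16.9, 2.40 and 18.1 CPM in control mice and 59.0, 61.9 and 35.6 CPM in stress mice. Cluster 24 held 118353, 416625 and 331191 UMIs in the control mice, so the Ramp3 levels there rest on few UMIs. Each difference given here also holds the change in clusters 2, 8 and 18, and is not the change within cluster 24 alone. Adgrg6, an adhesion receptor, differed by 2.65 (edgeR adjusted p = 0.0153), Mir155hg, the host transcript of a leukocyte miRNA, by 2.55 (0.00266), Serpinb9, an inhibitor of granzyme B, by 1.90 (0.0170) and the glycosyltransferase Gcnt2 by 1.80 (0.00381). S100a4 differed by 1.49 (edgeR adjusted p = 0.00444) and Uap1, an enzyme of amino sugar synthesis, by 1.49 (0.0224). The stress effect was lower in cluster 24 for Gm19951, at −1.44 (edgeR adjusted p = 0.00483), and for Egr1, at −1.41 (0.000545). In clusters 2, 8 and 18 Gm19951 rose by 2.60 under stress (edgeR adjusted p = 0.0116). Its −1.44 is set against that rise and does not state a fall in cluster 24. With called doublets left out, 2 cells of 1 stress mouse were left, and Ccl17 could not be tested. The median difference over all 12039 genes of that fit was −6.22, so it cannot be read for single genes. Beyond that fit and DESeq2, Ramp3, Gcnt2 and Egr1 kept the call in all alternatives run. Otherwise the call was lost without control mouse 3 for Adgrg6 (edgeR adjusted p = 0.271), Mir155hg (0.141) and Gm19951 (0.538), without control mouse 2 for Serpinb9 (0.183) and Uap1 (0.228), and without control mouse 1 for S100a4 (0.102). It was also lost without stress mouse 3 for Adgrg6 (edgeR adjusted p = 0.104) and Uap1 (0.321) and without stress mouse 1 for Serpinb9 (0.0777). In the same direction in all 3 stress mice, Mir155hg had 76.7, 72.6 and 80.1 CPM against 16.9, 43.2 and 18.1 CPM in control mice.

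In cluster 27 against clusters 2, 8 and 18, with every mouse that held at least 1 cell, the interaction called 2 genes. Basp1 was the one without overlap, at 3.77 (SE 0.84, edgeR adjusted p = 0.0411), and its UMIs came from 7 cells. Basp1 lost the call in DESeq2 and without each mouse other than stress mouse 3, with edgeR adjusted p from 0.0783 to 0.577. With called doublets left out its difference was −7.34 (edgeR adjusted p = 0.884), from 1 cell in each of 2 stress mice. The median difference over all 11553 genes of that fit was −6.47, so the value is not read as a reversal of Basp1 itself.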

How the results depend on the processing

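The difference in the share of cluster 24 among ECs, −0.355 percentage points, turned to 0.0124 with all annotated cells as the denominator and to 0.0529 as the log2 fold change of edgeR's cell numbers. That of cluster 27, −0.0471, turned to 0.0131, to 0.143 and, with cluster 15 left out of the ECs, to 0.0619. Leaving out 1 mouse gave −0.903 to −0.0513 for cluster 24 and −0.341 to 0.369 for cluster 27, positive without control mouse 2 (0.369), stress mouse 1 (0.0568) or stress mouse 3 (0.0141). The 8 calls in cluster 24 became 127 with no filter, 16 with DESeq2, 0 in endothelial genes alone (43 at an unadjusted p below 0.05 in edgeR) 0 with called doublets left out (46 at an unadjusted p below 0.05) and 5 to 34 without 1 mouse. The 28 calls of its interaction became 6 with called doublets left out, 45 with no filter, 1 with DESeq2, 63 with 5 EC clusters pooled and 24 to 76 without 1 mouse. In cluster 27, the 5 calls became 14 with no filter and 5 to 11 without 1 mouse, and the 2 of the interaction became 5 with RLE size factors, 0 with DESeq2 (126 at an unadjusted p below 0.05), 5 with called doublets left out, 11 with 5 EC clusters pooled and 1 to 8 without 1 mouse. In clusters 2, 8 and 18 the 28 calls became 101 with no filter, 302 with DESeq2 and 5 to 132 without 1 mouse. The cause was not tested. Endothelial markers stood at 0.628 of clusters 2, 8 and 18 in cluster 24 (0.616 to 0.651 without 1 mouse) and at 0.447 to 0.562 in cluster 27 without 1 mouse. Pan-leukocyte markers stood at 9.27 to 9.96 and 12.6 to 13.8 times without 1 mouse, and in cluster 27 at 14.9 in thinned cells. Without called doublets, control mouse 3 alone gave 0.696 for the endothelial markers in cluster 24. Single mice with all cells ranged there from 0.507 to 0.697. Control mouse 2 alone gave 17.8 for the pan-leukocyte markers in cluster 27 without called doublets, against 12.6 to 14.9 in single mice with all cells. For single genes, 312 of 393 alternatives kept direction and side of the threshold and 80 lost the call. In 1 the sign changed, for Basp1 in cluster 27 with called doublets left out (−7.34). The median over all genes of that fit was −6.47, so this is not read as a reversal of Basp1.

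The replicate numbers were shared labels only. Deviations of same-numbered control and stress mice correlated at 0.108, 0.239 and −0.00136 in cluster 24 and at 0.579, 0.431 and −0.140 in clusters 2, 8 and 18, and not every sample correlated best with its own number. With the replicate block, edgeR called 16 genes in cluster 24, 9 in cluster 27 and 107 in clusters 2, 8 and 18. With called doublets left out, 1 mouse kept at least 10 cells in each cluster, so the gene tests used every mouse with at least 1 cell, a choice made for cluster 24 after the data were seen. These fits rest on 1 stress mouse in cluster 24, assumed to vary like the others, and on 1 cell in each of 2 stress mice in cluster 27. The planned test of cluster 27 at 10 cells per mouse was not possible. The number of cells limited the tests of cluster 27, with 1 to 31 cells per mouse.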

Other observations

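Other gene groups gave these levels, as a description. Interferon response genes summed to 1441 CPM in cluster 24 and 1031 CPM in clusters 2, 8 and 18, with 1 of 10 genes higher in all 6 mice, and to 758 against 1035 CPM in cluster 27. Immediate-early and heat shock genes summed to 5701 against 5074 CPM in cluster 24 and to 3480 against 4967 CPM in cluster 27. Arterial endothelial genes were lower in all 3 mice of cluster 27 for 10 of 10 genes, at 201 against 551 CPM, and for 6 of 10 genes in all 6 mice of cluster 24, at 395 against 671 CPM. Lymphatic genes summed to 367 against 532 CPM in cluster 24 and tip cell genes to 372 against 508 CPM. Of the 7 lymphatic genes, 1 reached 10 CPM in clusters 2, 8 and 18, so their sum there came mostly from 1 gene. Plasma cell genes summed to 246 against 181 CPM, platelet genes to 214 against 212 CPM, mast cell genes to 325 against 499 CPM and mesothelial genes to 3.97 against 3.95 CPM in cluster 24.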
